A study of Mus musculus with 6 samples.

Results

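Free fatty acids act on cells both as fuel and as signals, and 8 genes that sense, import or bind them were followed here in mouse leukaemia cells. They are the receptor genes Ffar1, Ffar2, Ffar3 and Ffar4, the related receptor gene Hcar2, the transporter gene Cd36, and Fabp4 and Fabp5, which encode fatty acid binding proteins. The genes were listed by name, each represented by the probe set of highest mean that the platform's annotation gives a single gene symbol. All 8 of the 8 were found among 19938 genes. The list was chosen by family with the log2 fold changes of Ffar2 and Cd36 between the groups already known, so the members' values between groups are a description and carry no test.

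The arrays came from C57Bl/6 pre-B cells transformed with BCR-ABL1, the fusion kinase of Philadelphia chromosome-positive acute lymphoblastic leukaemia, all of them Bcor fl/Y, with loxP sites in the only copy that a male has of this X-linked gene. Bcor encodes a corepressor of BCL6 that also belongs to a polycomb complex recruited to CpG-rich DNA. In 1 group the cells were transduced with PMIP-CRE-ERT2, a vector for a Cre recombinase that tamoxifen activates, and in the other with PMIP-ERT2, which lacks Cre. Both groups, of 3 arrays each, were puromycin resistant and had been exposed to 4-hydroxytamoxifen at 0.5 micromolar for 2 days. The groups therefore differed in active Cre as well as in Bcor, and these cannot be told apart. The labels do not say whether the arrays of a group came from separate cultures or mice, so a p-value covers only the spread seen among these 6 samples, which may be technical.

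Expression was read as deposited log2 values, with a median per array between 8.61 and 8.68. Bcor stood at 10.07, 10.11 and 10.17 in ERT2 and at 9.08, 9.22 and 9.18 in Cre-ERT2, and the 2 groups did not overlap. Its log2 fold change was -0.96 (SE 0.0491, limma adjusted p = 2.11e-05), and whether its probe set lies inside the floxed part is not known here. No detection limit was available, so no gene was called absent. Levels of different genes were not compared, except to rank genes by mean for a filter tried as an alternative. Of 11 measured pre-B cell marker genes the mean log2 level was 12.25 to 12.27 in ERT2 and 12.27 to 12.30 in Cre-ERT2.

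FFAR2 and FFAR3 are G protein-coupled receptors for short-chain fatty acids such as acetate and propionate, which gut bacteria make in large amounts, whereas FFAR1 and FFAR4 respond to long-chain fatty acids. HCAR2 binds the ketone body beta-hydroxybutyrate and niacin. CD36 is a membrane glycoprotein that takes up long-chain fatty acids and oxidised lipoproteins, and the FABP proteins carry fatty acids inside the cell. In blood, Ffar2, Hcar2 and Cd36 are best known from neutrophils, monocytes, macrophages and platelets, and Cd36 also marks some B cell subsets.

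Ffar2, Ffar3 and Ffar1 lie next to one another on mouse chromosome 7, and the DNA before their starts is printed because the array values of these neighbours differed. The sequences, of 250 bases before an annotated start on the minus strand, are from RefSeq (GRCm38.p6), and capitals mark CG dinucleotides. Ffar2 has 4 annotated starts, of which the outermost is shown, and Cd36 is printed for the transporter. The Cd36 window lies inside the annotated span of its gene (chr5:17781690-17888959), not before its outer end.
Ffar2 (chr7:30823776-30824025): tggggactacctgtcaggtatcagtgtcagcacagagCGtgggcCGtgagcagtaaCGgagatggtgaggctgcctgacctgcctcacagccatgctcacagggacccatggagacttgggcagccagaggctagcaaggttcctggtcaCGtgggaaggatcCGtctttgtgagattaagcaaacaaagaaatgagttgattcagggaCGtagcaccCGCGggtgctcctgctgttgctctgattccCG
Ffar3 (chr7:30856179-30856428): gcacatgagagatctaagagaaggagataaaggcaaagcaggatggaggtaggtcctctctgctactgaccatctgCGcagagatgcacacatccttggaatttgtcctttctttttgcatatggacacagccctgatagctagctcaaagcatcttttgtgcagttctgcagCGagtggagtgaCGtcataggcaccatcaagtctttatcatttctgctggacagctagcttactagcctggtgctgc
Ffar1 (chr7:30861471-30861720): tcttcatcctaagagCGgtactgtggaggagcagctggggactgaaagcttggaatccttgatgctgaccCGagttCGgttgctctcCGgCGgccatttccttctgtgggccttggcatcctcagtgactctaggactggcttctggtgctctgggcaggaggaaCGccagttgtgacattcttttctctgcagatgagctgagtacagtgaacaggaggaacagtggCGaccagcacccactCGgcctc
Cd36 (chr5:17835897-17836146): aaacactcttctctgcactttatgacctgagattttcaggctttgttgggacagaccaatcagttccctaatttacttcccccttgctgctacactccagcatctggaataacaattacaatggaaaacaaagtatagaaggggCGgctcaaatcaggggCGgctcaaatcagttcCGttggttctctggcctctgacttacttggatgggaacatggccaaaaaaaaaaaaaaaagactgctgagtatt

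The outermost Ffar2 window held 9 CG dinucleotides, more than 59.7% of the 32851 windows of the same length in the table. The 3 inner Ffar2 windows, of which a pair overlap, held 3 each. Ffar3 held 3, Ffar1 held 8 and the Cd36 window, inside its gene, held 3, and the median window held 6. Ffar4, on chromosome 19, held 11. RefSeq windows were found for 5 of the 8 members, and Fabp4, Fabp5 and Hcar2 were not matched. The windows of these 5 members were searched on both strands for TTCNNNGAA (letters that STAT factors and BCL6 can bind), the DR1 element (bound by PPAR with RXR), CAGGTG (E proteins) and GAGGAAGT (ETS factors). None of the first 3 occurred in any of the 8 windows, and GAGGAAGT occurred only in that of Ffar4. Over all windows 7.02% held TTCNNNGAA, 0.0335% the DR1 element, 17.2% CAGGTG and 2.44% GAGGAAGT.

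Among the receptors for short-chain fatty acids, Ffar2 read 9.031, 8.999 and 8.999 (log2) in ERT2 and 10.19, 10.29 and 10.22 in Cre-ERT2. Every Cre-ERT2 array lay more than a log2 unit above every ERT2 array, and the arrays of a group were close together. The means were 9.01 ± 0.0184 and 10.23 ± 0.0502 (SD, n = 3 each), a log2 fold change of 1.22 (SE 0.0405), or 2.33-fold higher in Cre-ERT2. Only 4 of the 19938 genes had a larger log2 fold change upward, Ffar2 being the 5th in that order.

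Ffar3, the second receptor for short-chain fatty acids, read 7.56, 7.52 and 7.62 in ERT2 and 7.64, 7.60 and 7.82 in Cre-ERT2. The groups overlapped, since the second Cre-ERT2 array was below the third ERT2 array, and the highest value was in Cre-ERT2 replicate 3. The log2 fold change was 0.12 (SE 0.0620), 0.05 without Cre-ERT2 replicate 3 and 0.08 with array weights. It was 0.16 without Cre-ERT2 replicate 2 and 0.17 after quantile normalization or cyclic loess.

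The receptors for long-chain fatty acids also overlapped between groups. Ffar1 read 7.95, 8.04 and 8.01 in ERT2 and 8.29, 7.96 and 8.13 in Cre-ERT2, with Cre-ERT2 replicate 1 highest. Its log2 fold change was 0.13 (SE 0.0743), 0.05 without that array and 0.21 without Cre-ERT2 replicate 2. Ffar4 read 7.47, 7.49 and 7.47 in ERT2 and 7.43, 7.44 and 7.78 in Cre-ERT2, where replicate 3 alone was high and replicates 1 and 2 lay below all ERT2 arrays. Its log2 fold change was 0.08 (SE 0.0859), and -0.04 without Cre-ERT2 replicate 3, so its sign rested on that array. It was 0.01 with array weights, 0.14 and 0.13 without Cre-ERT2 replicate 1 and 2, and 0.13 after quantile normalization or cyclic loess.

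Hcar2 read 8.10, 8.12 and 8.11 in ERT2 and 7.98, 7.98 and 8.10 in Cre-ERT2. All Cre-ERT2 arrays lay below all ERT2 arrays, but replicate 3 by less than 0.01. The log2 fold change was -0.09 (SE 0.0434), and it was -0.05 after quantile normalization and -0.04 after cyclic loess. It was -0.13 without Cre-ERT2 replicate 3 and -0.11 with array weights.

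Cd36 read 9.26, 9.31 and 9.34 in ERT2 and 8.62, 8.57 and 8.63 in Cre-ERT2. The groups were well apart, with Cre-ERT2 low in every array. The means were 9.31 ± 0.0396 and 8.61 ± 0.0319 (SD, n = 3 each), a log2 fold change of -0.70 (SE 0.0400), so that Cre-ERT2 arrays held 61.5% of the signal in ERT2. It was the 11th largest fall of all genes. In RNA from a whole culture, fewer cells with the transcript and less transcript per cell cannot be told apart, and this holds for the rise of Ffar2 as well.

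For both binding proteins the groups overlapped. Fabp4, the form of adipocytes and macrophages, read 6.71, 6.58 and 6.76 in ERT2 and 6.79, 6.74 and 6.75 in Cre-ERT2, a log2 fold change of 0.07 (SE 0.0509). It was 0.02 without ERT2 replicate 2 and 0.13 after quantile normalization or cyclic loess. Fabp5, the form of epithelia and many proliferating cells, read 12.10, 12.09 and 12.17 in ERT2 and 12.10, 12.15 and 12.05 in Cre-ERT2, a log2 fold change of -0.02 (SE 0.0441), again with overlap. Its sign changed without ERT2 replicate 3 (0.005) or Cre-ERT2 replicate 3 (0.005), with array weights (0.01) and after cyclic loess (0.003). Fabp5 has a second probe set, at 11.87, 11.85 and 11.95 in ERT2 and 11.89, 11.92 and 11.81 in Cre-ERT2, and its difference was -0.01. Both probe sets were annotated to Fabp5 alone, and which of them reads the functional locus is not known here. Fabp4 and Fabp5 have close relatives, and their probes may read more than a single gene.

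Of the 8 members, 3 had groups that did not overlap, against 29.9% of all genes: Ffar2 with Cre-ERT2 above, as in 9.56% of genes, and Cd36 and Hcar2 with Cre-ERT2 below, as in 20.3%. In limma, 1 member was called higher and 1 lower at an adjusted p under 0.05 over all genes, against 7.03% of genes called in either direction. These are Ffar2 and Cd36, whose values chose the list, so nothing is read from either count. The median log2 fold change of the members was 0.08, and that of all genes was -0.04. The members' median was 0.03 without Cre-ERT2 replicate 3, 0.04 with array weights and 0.13 after quantile normalization or cyclic loess, while that of all genes was -0.01 and -0.002 after these 2 normalizations. No filter on low values was used, so all 8 members were in the fit.

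**Figure D1:**
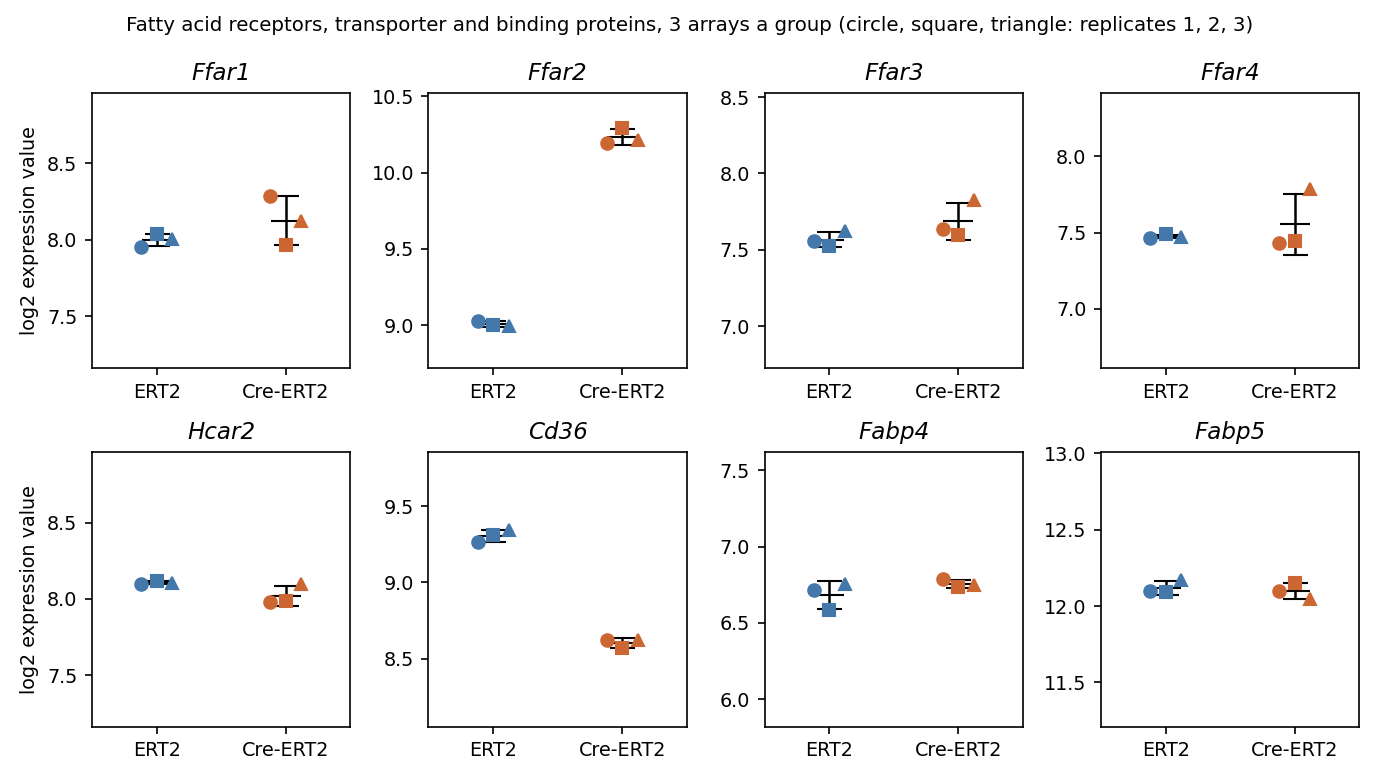
Log2 expression value of each of the 8 genes (vertical axis, the same span of 1.8 log2 units in every panel) in the ERT2 and Cre-ERT2 arrays; circles, squares and triangles are replicates 1, 2 and 3, and black bars are the mean ± SD of 3 arrays. Ffar2 is higher by 1.22 and Cd36 lower by 0.70 in Cre-ERT2. A single high array (replicate 3) widens the Cre-ERT2 bars of Ffar3 and Ffar4, and a high replicate 1 with a low replicate 2 widens that of Ffar1.

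The neighbours of the members were compared to see whether the differences extended along the chromosome. On the Ffar3 side, Ffar2 was followed by Ffar3 and Ffar1, with the values above, and then by Cd22, an inhibitory receptor of B cells, which read 11.21, 11.20 and 11.32 in ERT2 and 11.51, 11.52 and 11.52 in Cre-ERT2. All Cre-ERT2 arrays were above all ERT2 arrays, and Cd22 rose by 0.27 (SE 0.0441, limma adjusted p = 0.00707). On the other side the keratinocyte genes Krtdap, Dmkn and Sbsn had log2 fold changes of -0.02, -0.08 and -0.05, and none was called (limma adjusted p from 0.408 to 0.905). Ffar3 and Ffar1, which lie between Ffar2 and Cd22, overlapped between groups.

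**Figure D2:**
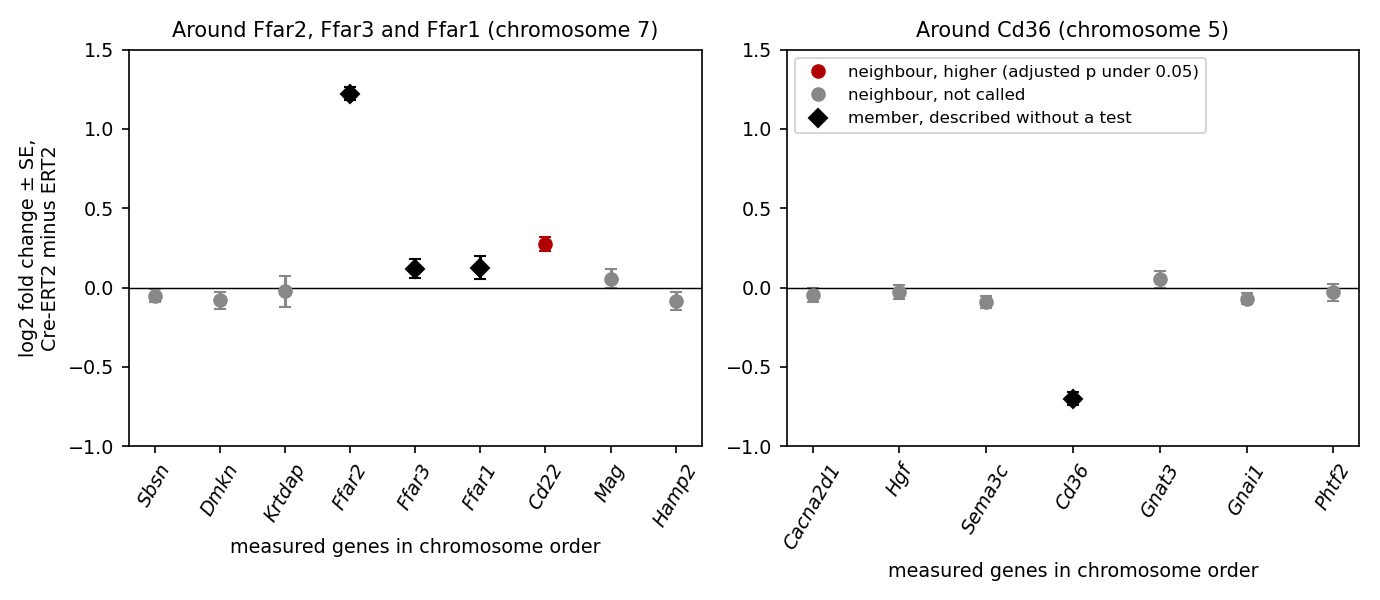
Log2 fold change ± SE (Cre-ERT2 minus ERT2, 3 arrays each) of the measured genes around Ffar2, Ffar3 and Ffar1 (left) and around Cd36 (right), in chromosome order and not to scale along the chromosome; diamonds are the members, circles their neighbours. Ffar2 at 1.22 and Cd36 at -0.70 lie outside the range of their neighbours, of which Cd22 alone was called, at 0.27.

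Around Cd36 no neighbour was called. Sema3c, a secreted guidance protein, was at -0.09 (limma adjusted p = 0.196), Gnat3, a taste cell G protein subunit, at 0.05 (adjusted p = 0.605), and Gnai1, an inhibitory G protein subunit through which FFAR and HCAR receptors can signal, at -0.07 (adjusted p = 0.290). Hgf, Cacna2d1 and Phtf2 lay between -0.05 and -0.03. These 3 genes are 1162, 1407 and 2870 kb from Cd36, and Gnai1 is 376 kb away. Sema3c and Gnat3 are nearer, at 51.4 and 73.6 kb. With array weights Sema3c was called (adjusted p = 0.0453).

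Beside the other members, the 3 measured genes on either side were read as well. Apart from Cd22 and the members themselves, 3 of these neighbours were called, where 7.03% of all genes were. Myof, a membrane repair protein near Ffar4, rose by 0.54 (SE 0.0440, limma adjusted p = 0.000203). Cep55, between Myof and Ffar4, was at -0.03, and Rbp4, next to Ffar4 on the other side, at -0.005, and neither was called. Pag1, an adaptor that recruits the kinase CSK, and the zinc finger gene Zfp704, both on the same side of Fabp5, rose by 0.31 (SE 0.0483, adjusted p = 0.00579) and 0.34 (SE 0.0618, adjusted p = 0.0121). The call of Zfp704 ended without ERT2 replicate 3 (adjusted p = 0.0526). The fatty acid binding relatives Pmp2, Fabp9 and Fabp12, next to Fabp4, were at -0.10, -0.001 and 0.0001, and Hcar1, the lactate receptor beside Hcar2, was at -0.08, and none of these was called.

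The genes whose pattern over the 6 arrays was nearest to a member were found as those with the smallest root mean square difference after centring each gene on its mean. Genes with clone-style or predicted-gene names, olfactory and vomeronasal receptor genes and small RNA genes were left out of this search. For Ffar2 they were Icosl, the ligand of ICOS (0.0501 log2 units, Pearson r = 0.998), Chn2 (0.0822), Cenpv (0.0838), Tmed6 (0.0869) and Pcbd1 (0.0900). For Cd36 they were Hs3st1, a heparan sulfate sulfotransferase (0.0274, r = 0.999), the urea transporter Slc14a1 (0.0284), Cth (0.0296), the CD20 gene Ms4a1 (0.0601) and Il7r, a chain of the interleukin 7 receptor (0.0620). With 6 arrays in 2 groups these likenesses mostly give the size of the group difference, and all values come from the same arrays. Within the groups the 5 genes near Ffar2 did not share 1 order of arrays: Cre-ERT2 replicate 1 was the highest of its group for Pcbd1 and Cenpv and the lowest for Icosl, Chn2 and Tmed6.

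**Figure D3:**
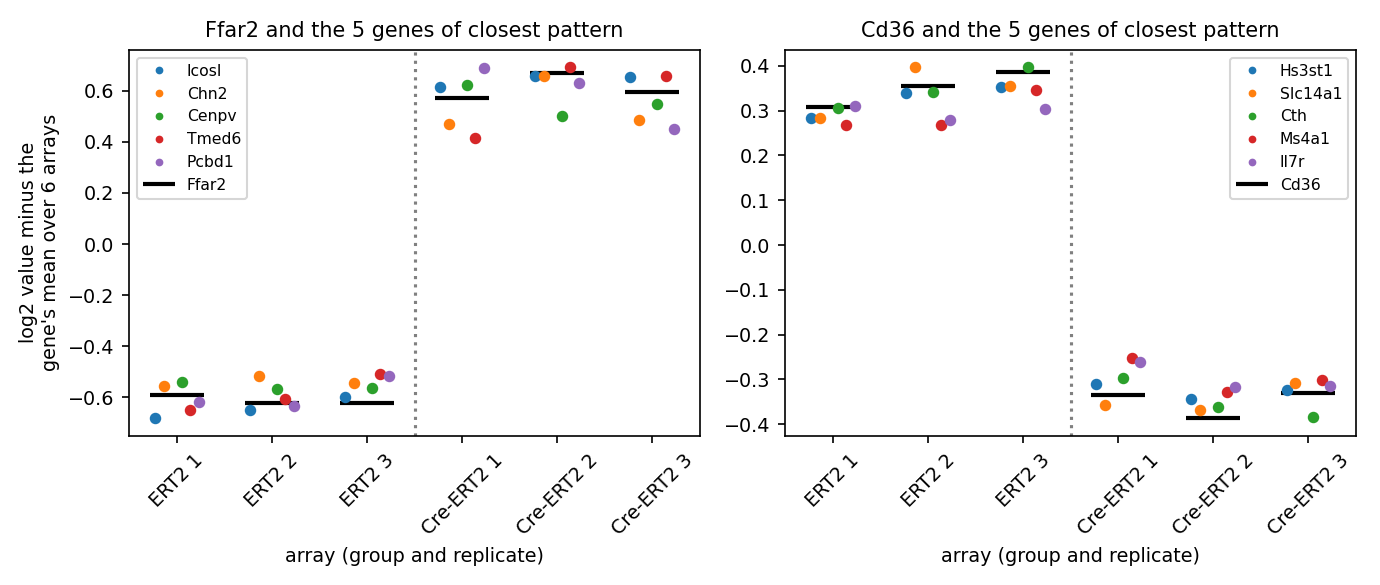
Log2 value minus the gene's own mean over the 6 arrays (vertical axis) for Ffar2 and for Cd36 (black bars) and the 5 genes of closest pattern (coloured points, offset sideways for legibility), by array. The points follow the step between ERT2 and Cre-ERT2 closely, and scatter around the bars within a group.

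The genes around these members in fatty acid biology were read from 7 lists that hold 177 genes, 162 of them measured by a probe set of a single symbol. In limma, 15 of the 162 rose and 5 fell in Cre-ERT2. The share called in either direction was 12.3%, against 7.03% of all genes. By direction, 4.05% of all genes were higher and 2.98% lower. By list the share called ran from 3.12% (uptake, binding and activation) to 19% (signalling partners). The median log2 fold change of the 162 was -0.02, and that of all genes was -0.04. After quantile normalization 16 rose and 2 fell, and after cyclic loess 19 rose and 2 fell. The count was 11 without ERT2 replicate 1 or Cre-ERT2 replicate 1, and 13 without ERT2 replicate 3.

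The signalling partners of the receptors gave 4 rises and 0 falls among 21 measured G protein, arrestin, receptor kinase, phospholipase and adenylate cyclase genes, with 17 not called and a median of 0.03. Adcy6, an adenylate cyclase that inhibitory G proteins restrain, read 9.58, 9.76 and 9.66 in ERT2 and 10.29, 10.26 and 10.37 in Cre-ERT2. The groups were apart in every array, and Adcy6 rose by 0.64 (SE 0.0533, limma adjusted p = 0.000219). Gna15, a G protein subunit of blood cells that couples many receptors to phospholipase C, read 10.90, 10.88 and 10.94 in ERT2 and 11.34, 11.44 and 11.37 in Cre-ERT2.

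Gna15 rose by 0.48 (SE 0.0419, limma adjusted p = 0.000278). Plcb2, a phospholipase C of blood cells that such subunits activate, rose by 0.33 (SE 0.0440, adjusted p = 0.00270), and Adcy7, an adenylate cyclase of lymphocytes, by 0.28 (SE 0.0433, adjusted p = 0.00557). These 4 genes stayed past the threshold with every array left out and under every other setting run. The inhibitory subunits through which FFAR2 and FFAR3 signal, Gnai1, Gnai2 and Gnai3, were at -0.07, 0.04 and 0.06, and Gnaq and Gna11 at 0.04 and -0.02, none of them called. Of the arrestins, Arrb1 was at 0.15 (adjusted p = 0.0507) and Arrb2 at -0.13 (adjusted p = 0.168). The genes given as not called were picked with their values in view.

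Of 13 other receptors for lipids and metabolites, 1 rose and 1 fell, with a median of -0.01. Ptger4, a receptor for prostaglandin E that raises cyclic AMP, read 10.70, 10.60 and 10.74 in ERT2 and 11.12, 11.04 and 11.06 in Cre-ERT2, a rise of 0.39 (SE 0.0477, limma adjusted p = 0.00175). Oxgr1, the oxoglutarate receptor, fell by 0.18 (SE 0.0439, adjusted p = 0.0418), a call lost with any array left out (adjusted p from 0.0541 to 0.163), with a trend in eBayes, after quantile normalization and after cyclic loess. The medium-chain fatty acid receptor Gpr84, chosen after its values were seen, was at 0.10 and was not called.

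Of 32 other genes for uptake, binding and activation of fatty acids, 1 rose, 0 fell and 31 were not called, a share of 3.12%. The median was -0.04. The gene that rose was Mfsd2a, a transporter of lysophosphatidylcholine that carries docosahexaenoic acid, from 10.23, 10.12 and 10.27 in ERT2 to 10.64, 10.55 and 10.48 in Cre-ERT2, by 0.35 (SE 0.0561, limma adjusted p = 0.00693). The fatty acid transport proteins Slc27a1 and Slc27a4 were at 0.12 and -0.01 and the heart-type binding protein gene Fabp3 at -0.09, all chosen after their values were seen and none called. Acsl1 and Acsl3, which activate long-chain fatty acids, were not measured by a probe set of a single symbol.

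Of 20 scavenger receptors and CD36 ligands and partners, 1 rose, 2 fell and 17 were not called, with a median of -0.05. Tlr4, the receptor for lipopolysaccharide, which can form a complex with TLR6 and CD36, read 10.82, 10.76 and 10.81 in ERT2 and 10.27, 10.31 and 10.21 in Cre-ERT2. It fell by 0.53 (SE 0.0414, limma adjusted p = 0.000162), and the groups did not overlap. Tlr6 rose by 0.22 (SE 0.0499, adjusted p = 0.0373), a call lost with any array except Cre-ERT2 replicate 3 left out (adjusted p from 0.0565 to 0.132).

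The kinase gene Fyn, which CD36 can engage, fell by 0.15 (SE 0.0366, limma adjusted p = 0.0457), a call lost with any array left out (adjusted p from 0.0642 to 0.183), after quantile normalization and after cyclic loess. The nearest relatives of Cd36, Scarb1 and Scarb2, were at -0.13 (adjusted p = 0.162) and 0.06 (adjusted p = 0.476), both named with their values in view. Lyn was not measured by a probe set of a single symbol.

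Cd36 and Fabp4 are classic targets of the lipid-activated nuclear receptor PPAR gamma, so its family and targets were read as well. Of 21 measured genes 3 rose and 0 fell, with a median of 0.01. Angptl4, a PPAR target that inhibits lipoprotein lipase, read 8.44, 8.32 and 8.47 in ERT2 and 8.66, 8.74 and 8.81 in Cre-ERT2 and rose by 0.33 (SE 0.0546, limma adjusted p = 0.00860). The LXR targets Abcg1, a cholesterol exporter, and Mylip, a ligase that degrades the LDL receptor, rose by 0.23 (SE 0.0463) and 0.17 (SE 0.0387).

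The call of Abcg1 ended without Cre-ERT2 replicate 1 or without ERT2 replicate 1 or 2 (limma adjusted p from 0.0504 to 0.0728), and that of Mylip with any array left out (0.0653 to 0.105) and after quantile normalization. The receptors themselves were not called: Ppara was at -0.08, Ppard at 0.14, Pparg at -0.11 and Rxra at 0.004. The PPAR targets Cpt1a and Plin2 were at -0.09 and 0.10, also not called. These 6 genes were picked for mention with their values in view.

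For the use of fatty acids as fuel, 3 of 26 measured oxidation genes rose and 1 fell, with a median of -0.03. Acox3, a peroxisomal oxidase of branched fatty acids, read 10.64, 10.70 and 10.76 in ERT2 and 11.06, 11.06 and 11.10 in Cre-ERT2 and rose by 0.37 (SE 0.0427, limma adjusted p = 0.00122). Echs1, the mitochondrial enoyl-CoA hydratase, fell by 0.25 (SE 0.0386, adjusted p = 0.00571). The carnitine carrier Slc25a20 and the medium-chain dehydrogenase Acadm rose by 0.23 (SE 0.0509) and 0.21 (SE 0.0423).

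The call of Slc25a20 ended with any array other than Cre-ERT2 replicate 3 left out (limma adjusted p from 0.0673 to 0.0983), and that of Acadm without replicate 1 or 3 of either group (0.0510 to 0.0771). For storage as triglyceride, 2 of 29 measured genes rose and 1 fell, with a median of -0.05. The acyltransferases Agpat2 and Agpat3, which make phosphatidic acid, rose by 0.30 (SE 0.0548, adjusted p = 0.0137) and 0.22 (SE 0.0384, adjusted p = 0.0101). Lpin3, a phosphatidate phosphatase, fell by 0.18 (SE 0.0390, adjusted p = 0.0312). The Agpat2 call ended without replicate 1 of either group (adjusted p 0.0577 at most) and that of Lpin3 with any array left out (0.0547 to 0.138), after quantile normalization and after cyclic loess.

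**Figure D4:**
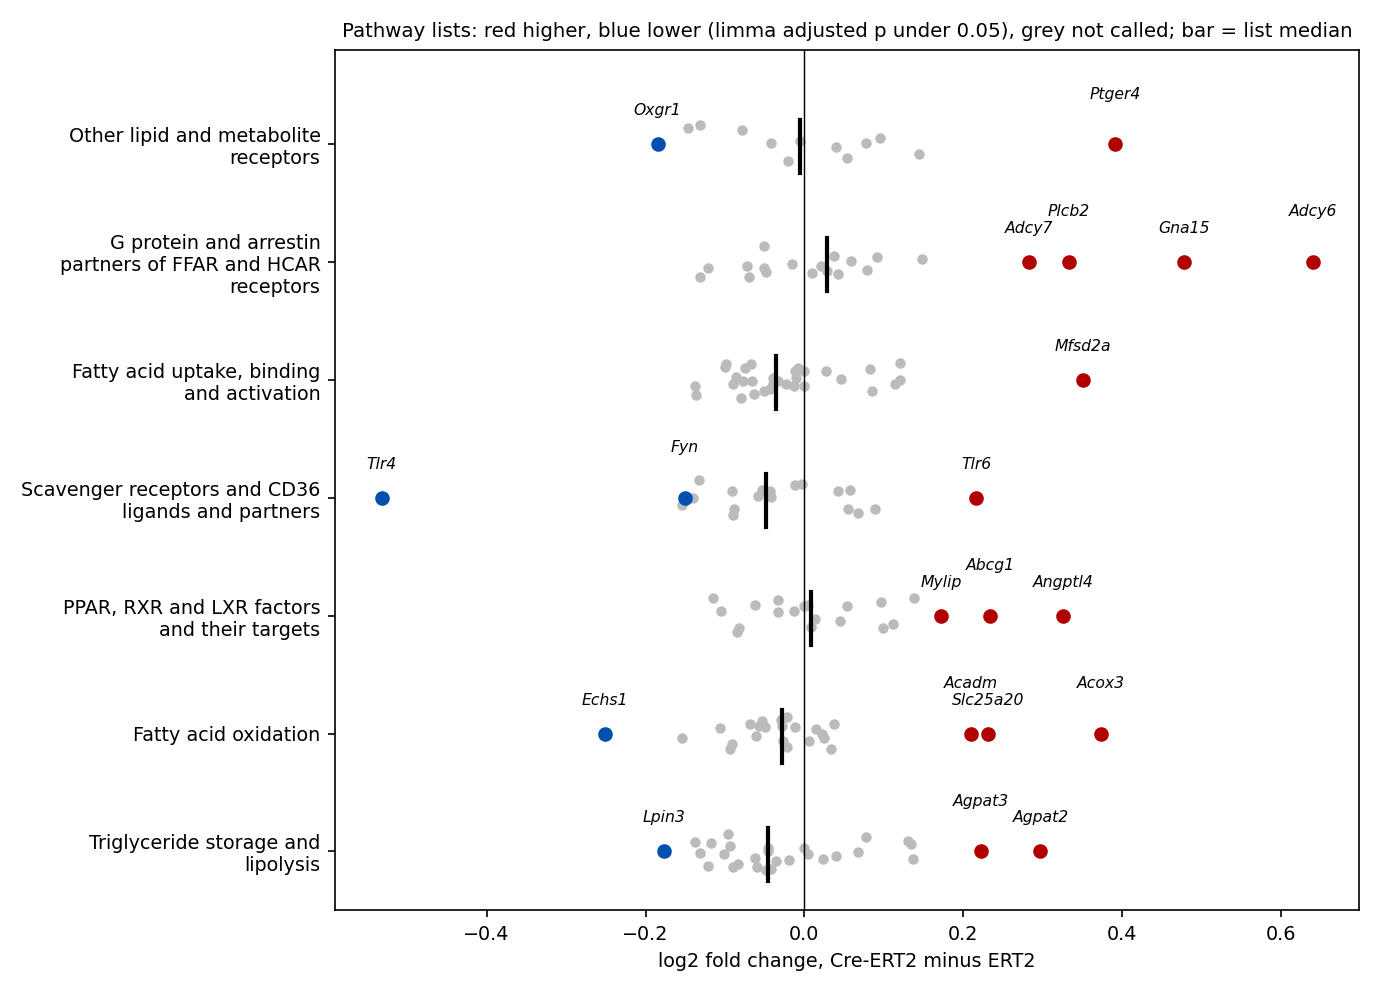
Log2 fold change (Cre-ERT2 minus ERT2, 3 arrays each) of every measured gene of the 7 fatty acid lists; red genes were higher and blue genes lower at a limma adjusted p under 0.05, grey genes were not called, and black bars are list medians. The called genes lie between -0.53 (Tlr4) and 0.64 (Adcy6), and the list medians between -0.05 and 0.03.

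Because Ffar2, Hcar2, Cd36 and Fabp4 are known from other cell types, markers of those cells were read beside them, and their part in the values above was not tested. Of 9 macrophage and monocyte markers 2 rose and 2 fell, or 44.4%, against 7.03% of all genes called. In limma 5 of the 9 had an unadjusted p under 0.05, against 23.0% of all genes. The mean log2 level of the 9 was 8.05 to 8.08 in ERT2 and 8.04 to 8.09 in Cre-ERT2. Lyz2 rose by 0.45 (SE 0.0662) and Mrc1 fell by 0.54 (SE 0.0446), while Fcgr1 (0.35) and Mertk (-0.20) were named after their values were seen. The calls of Fcgr1 and Mertk ended when ERT2 replicate 2, ERT2 replicate 3, Cre-ERT2 replicate 1 or Cre-ERT2 replicate 2 was left out (limma adjusted p from 0.0842 to 0.112 and from 0.0597 to 0.0997), and that of Mertk after cyclic loess too. Of 10 granulocyte markers 0 were called by limma, with 5 at an unadjusted p under 0.05, against 23.0% of all genes. All 10 were lower in Cre-ERT2, as were 68.2% of all genes, with a median of -0.10 against -0.04. For 5 of them Cre-ERT2 lay below ERT2 in every array, as in 20.3% of all genes, and the mean level was 7.65 to 7.68 in ERT2 and 7.56 to 7.58 in Cre-ERT2.

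Of 7 adipocyte markers Lep alone was called, at -0.20, or 14.3%, against 7.03% of all genes. In limma 4 of the 7 had an unadjusted p under 0.05, against 23.0% of all genes. The median of the 7 was -0.12, against -0.04 for all genes, with a mean level of 8.13 to 8.17 in ERT2 and 8.04 to 8.09 in Cre-ERT2. The call of Lep ended with any array left out (limma adjusted p from 0.0646 to 0.130) and after median centring, quantile normalization and cyclic loess. Of 8 endothelial markers 1 was called (12.5%, against 7.03% of all genes), Egfl7, which rose by 0.32 (SE 0.0390). In limma 4 of the 8 had an unadjusted p under 0.05, against 23.0% of all genes. The mean level of the 8 was 8.47 to 8.50 in ERT2 and 8.52 to 8.56 in Cre-ERT2. Of 6 megakaryocyte and erythroid markers 0 were called, with 0 at an unadjusted p under 0.05 and a mean level of 8.35 to 8.37 against 8.33 to 8.40. Among 11 pre-B cell markers 2 rose and 2 fell, or 36.4%, against 7.03% of all genes. Of these 11 markers, 6 had an unadjusted limma p under 0.05, against 23.0% of all genes. Dntt rose by 0.86 and Il7r fell by 0.60, and Rag1 (-0.38) and Cd24a (0.19) were named after their values were seen. The call of Cd24a ended with any array except Cre-ERT2 replicate 3 left out (limma adjusted p from 0.0970 to 0.171).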

How the data were processed

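The deposited table holds log2 expression values per probe set for 6 arrays. Per the submitters' processing notes the tools were RMA and Partek 6.5, whose roles are not stated. For the genome build and the background setting, the sources used here give nothing. A single gene symbol was listed for 21789 of 35556 probe sets, and the brightest such probe set on average stood for each of 19938 genes. The GRCm38.p6 gene table, which held 21698 of these identifiers, served for names, neighbours and promoter windows.

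Cre-ERT2 was compared with ERT2 in limma 3.58.1 under R 4.3.3 (lmFit, then eBayes with no trend), with Benjamini-Hochberg adjustment over all 19938 genes and a threshold of 0.05. Other tools were Python 3.11.15, matplotlib 3.10.9, pandas 2.3.3 and the R package data.table (version 1.17.8). The fit was tested on simulated data. Only 6 arrays limit the precision: the median SE of a log2 fold change was 0.0477.

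The members and lists were chosen with earlier results of these data known. The genes named by rule were the members, up to 4 called genes of each fatty acid list and up to 2 of each marker list. To these were added the 3 measured genes on either side of Ffar2 and of Cd36 and called neighbours of other members. The 5 genes nearest in pattern and Bcor completed the rule. Other genes in the text, called or not, were picked with their values in view. Alternatives tried were a replicate block, a trend, array weights, 3 normalizations, a filter, the mean of probe sets, and each array left out.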

Additional observations from a re-analysis of the deposited data

How the results depend on the processing

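The log2 fold change of Ffar2 lay between 1.19 and 1.24 and that of Cd36 between -0.72 and -0.68 under every alternative run. The count of called genes, 1402, fell to 805 with the replicate block and rose to 3339 with array weights, and lay between 743 and 1341 with each array left out. The 20 calls in the fatty acid lists became 13 with the replicate block, 33 with array weights and between 11 and 16 with each array left out. Over all genes 808 were higher and 594 lower, against 1051 and 425 after cyclic loess and 1315 and 2024 with array weights. The cause of these shifts was not tested. The labels do not say whether the replicate numbers pair the arrays. Deviations of same-numbered arrays from their group means correlated at 0.05, -0.09 and -0.26, and ERT2 replicate 2 correlated best with Cre-ERT2 replicate 3 (0.31). These correlations cannot decide the pairing, since the deviations within a group are bound to one another. Of the 35 genes beyond the members whose calls are given, 21 stayed past the threshold in every setting run and 14 did not in at least 1. Genes named only for their likeness to a member are not in this count. With the block the calls of Oxgr1, Tlr6, Fyn, Mylip, Acadm, Agpat2, Lpin3, Cd24a, Mertk and Lep ended. The medians of the lists of other receptors and of uptake turned from below to above 0 after quantile normalization (0.04 and 0.006) and after cyclic loess (0.05 and 0.01), as did that of oxidation after cyclic loess (0.003). That of other receptors was also above 0 with array weights (0.04), after a filter that removed the 30% of genes lowest in mean (0.01), and on leaving out ERT2 replicate 2 (0.03), ERT2 replicate 3 (0.02) or Cre-ERT2 replicate 1 (0.03), and that of PPAR genes was below 0 without Cre-ERT2 replicate 3 (-0.005). That filter kept 5 of the 8 members, with a median of -0.02. Without a detection limit, whether a member with a small difference was expressed cannot be said.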
